A study of Mus musculus with 17 samples.

Results

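*Nanog* and 6 genes that lie near it on mouse chromosome 6 were followed in RNA-seq libraries of ES cells that lack *Nanog*. The 7 genes, taken by their names among the 15470 rows of the expression table, were *Nanog*, *Dppa3*, *Gdf3*, *Slc2a3*, *Apobec1*, *Foxj2* and *Phc1*. All 7 passed the filter on low values and were among the 15117 genes tested. In *Nanog* KO cells *Nanog* and *Dppa3* were lower at every time, and *Gdf3* and *Apobec1* were higher at 0 h. *Gdf3* and *Apobec1* were also called higher at 12 h, by less, but those calls were lost under 13 and 2 of 26 alternative analyses. Neither was called at 24 h. *Slc2a3*, *Foxj2* and *Phc1* had larger differences between times than between genotypes.

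The libraries came from *Nanog* KO ES cells (line BT12) and from their parental control line (E14Tg2a, labelled wt). At 0 h both lines were in naive culture, with LIF, Knockout serum replacement and 2i (the inhibitors CHIR-99021 and PD0325901) over inactive mouse embryonic fibroblasts. Serum then replaced LIF and 2i, and cells were taken again at 12 h and 24 h. Each *Nanog* KO group had 3 libraries (9 in all), and the control groups had 2 at 0 h (replicates 2 and 3) and 3 at 12 h and 24 h (8 in all). Each genotype is 1 cell line, so an effect of the *Nanog* deletion and another difference between the lines cannot be told apart. Nothing in the sources tells whether replicates came from separate cultures. The p-values therefore rest on the spread of these libraries, which may be technical.

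NANOG is a homeodomain transcription factor of the naive pluripotency network, and its amount sets how readily ES cells self-renew or leave that state. Several of its neighbours are themselves genes of pluripotent and germ cells: *Dppa3* (Stella) encodes a protein of the oocyte, early embryo and germ line that limits DNA methylation by UHRF1, and *Gdf3* encodes a TGF-beta ligand of the Nodal branch. *Slc2a3* encodes the glucose transporter GLUT3, *Apobec1* a cytidine deaminase that edits RNA, *Foxj2* a forkhead transcription factor and *Phc1* a Polyhomeotic subunit of the Polycomb repressive complex PRC1.

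Depth, the sum of reads per library, ran from 8775372 to 33766086, at which 3 reads are worth 0.0851 to 0.326 CPM. Values are TMM-scaled CPM, that is, reads scaled to library size and composition (CPM below). All 5 ES cell markers (*Pou5f1*, *Sox2*, *Sall4*, *Zfp42*, *Fgf4*) were above 1 CPM in every group, with sums of 2025 to 2485 CPM in *Nanog* KO libraries and 1748 to 2659 CPM in control libraries. Fibroblast marker RNA was present at all times, and whether it came from the feeder layer was not tested. The summed level of 15 fibroblast markers was 1221 to 1352 CPM at 0 h, 652 to 793 CPM at 12 h and 266 to 349 CPM at 24 h in *Nanog* KO libraries, against 1907 to 2023 CPM, 1358 to 1443 CPM and 835 to 952 CPM in control libraries. With *Nanog* KO set against control, 6 of the 15 were called lower (2 higher) at 0 h. At 12 h 8 were called lower (1 higher), and at 24 h 10 (0 higher). These calls make up 53.3%, 60% and 66.7% of the list, against 52.3%, 49.8% and 47.9% of all tested genes. Of all tested genes, 26.9%, 25.2% and 24.5% were called lower at those times, and 25.4%, 24.6% and 23.4% higher. The summed level of 7 primitive endoderm markers was 118 to 125 CPM, 145 to 154 CPM and 186 to 199 CPM at the same times in *Nanog* KO libraries, against 18.9 to 26.3 CPM, 13.5 to 15.7 CPM and 11.7 to 14.6 CPM in control libraries. Of these 7, 6 were called higher at 0 h and 7 at 12 h and 24 h (85.7%, 100% and 100% of the list), against the shares of all tested genes just given. These shifts move with genotype and time, and their part in the results that follow was not tested. In such bulk samples, fewer cells that express a gene and less of its RNA per cell cannot be told apart.

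The 7 genes span 527.636 kb of chromosome 6 (GRCm38, GENCODE M21). *Phc1* (ENSMUSG00000040669) lies from 122317731 to 122340561 on the minus strand, with its start 367 kb from that of *Nanog*. *Apobec1* (ENSMUSG00000040613, 122577792 to 122602444, minus strand) and *Gdf3* (ENSMUSG00000030117, 122605403 to 122610087, minus strand) start 105 kb and 97.4 kb from it, and *Dppa3* (ENSMUSG00000046323, 122626410 to 122630272, plus strand) starts 81.1 kb from it on the same side. *Nanog* (ENSMUSG00000012396) covers 122707489 to 122714633 on the plus strand. On its other side, *Slc2a3* (ENSMUSG00000003153, 122727809 to 122801640, minus strand) starts 94.2 kb away and *Foxj2* (ENSMUSG00000003154, 122819914 to 122845366, plus strand) 112 kb away. *Slc2a3* overlaps the annotated pseudogene *Gm4482*, and *Foxj2* overlaps the antisense gene *Gm26826* and the miRNA gene *Mir7231*. Whether counting took account of strand is not given in the sources used here, and reads from stretches that overlapping genes share cannot be told apart. Of 5343 windows of 30 bases in annotated *Foxj2* transcripts, 132 also occurred in those of *Gm26826*.

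Sequence shared with other genes bears most on 2 members. Of the windows of 30 bases in annotated *Dppa3* transcripts, 30.4% also occurred in transcripts of other genes. Of these 262 windows, 255 occurred in the copy *Dppa3-ps*. For *Nanog* the share was 11.1%, but only 106 of its 249 shared windows occurred in *Nanog-ps1*. The *Nanog* windows were spread over 1116 other genes in all, *Nanog-ps1* among them. With 50 bases the shares were 16.5% for *Dppa3* and 4.61% for *Nanog*. For the other 5 genes the share at 30 bases was between 0.439% (*Phc1*) and 3.05% (*Gdf3*). How reads were divided between a gene and others that share its sequence was not tested, so the low values of *Nanog* and *Dppa3* in *Nanog* KO cells are uncertain to that extent.

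The stretch before the *Nanog* start is shown because it holds the joint OCT4 and SOX2 element by which the pluripotency network is known to act on *Nanog*. RefSeq promoter windows (GRCm38.p6) were matched for 4 of the 7 genes, with 5 windows in all since *Nanog* has a pair of starts. The 250 bases before the first *Nanog* start, at chr6:122707239-122707488 on the plus strand, are printed 5′ to 3′ with the octamer core TTTGCAT and the SOX core ACAATG in capitals.

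Nanog: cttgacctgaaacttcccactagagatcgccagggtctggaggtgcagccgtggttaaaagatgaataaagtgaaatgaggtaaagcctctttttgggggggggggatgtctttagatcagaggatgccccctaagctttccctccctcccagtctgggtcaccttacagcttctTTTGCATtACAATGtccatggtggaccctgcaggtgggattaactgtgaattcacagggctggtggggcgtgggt

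The octamer core begins 75 bases and the SOX core 67 bases before that start (151 and 143 bases before the other RefSeq start), with 1 base between them. Searched on both strands in the 250 bases before each of 32851 RefSeq starts, TTTGCAT occurred in 4.12% of windows and ACAATG in 10.7%. Both occurred somewhere in 211 windows (0.642%), and the order and spacing seen here in 2 windows (0.00609%), both of which belong to *Nanog*. The other motifs searched were a nuclear receptor motif (AAGGTCA, 4.08% of windows), a KLF motif (GGGTGTG, 6.93%), a TCF motif (CTTTGAA, 4.46%) and a HIF motif (ACGTG, 16.6%). *Apobec1* held the KLF motif 129 bases before its RefSeq start. The HIF motif lay 134 bases before the RefSeq start of *Foxj2* and 14 bases before that of *Phc1*. These 2 RefSeq starts differ from the GENCODE starts used for position. The windows of *Foxj2* (122819934 to 122820183) and *Phc1* (122340228 to 122340477) lie inside the gene spans given above, so both HIF motifs lie after the GENCODE starts. Neither core was found in the windows of *Apobec1*, *Foxj2* and *Phc1*. None of the motifs searched overlaps another in these windows, and a match is a stretch of letters, not a bound site.

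The first question was how *Nanog* itself and its neighbours stood in *Nanog* KO cells against the control at each time. At 0 h *Nanog* had 31.7, 34.6 and 32.1 CPM in *Nanog* KO libraries, against 412 and 411 CPM in control libraries. At 12 h *Nanog* had 27.5, 25.9 and 22.5 CPM in *Nanog* KO libraries, against 411, 388 and 384 CPM in control libraries. At 24 h *Nanog* had 14.6, 16.1 and 12.5 CPM in *Nanog* KO libraries, against 271, 313 and 311 CPM in control libraries. All 9 *Nanog* KO libraries were far below all 8 control libraries, as the labels say. *Nanog* KO means were 7.97%, 6.41% and 4.82% of the control means at 0, 12 and 24 h. On the log2 scale *Nanog* differed by -3.61 ± 0.09 (SE), -3.91 ± 0.08 and -4.29 ± 0.08 at those times (adjusted p = 1.5e-15, 1.9e-16 and 2.4e-17 by limma). The remaining signal rested on 132 to 734 reads per *Nanog* KO library, against 3537 to 14496 reads per control library. The labels do not say which part of the gene is missing and the table holds 1 value per gene, so from where in *Nanog* these reads came cannot be told here.

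*Dppa3*, on the 5′ side of *Nanog*, was the other gene of the 7 that was lower at every time. At 0 h *Dppa3* had 17.1, 13.4 and 14.1 CPM in *Nanog* KO libraries, against 45.1 and 35.3 CPM in control libraries. At 12 h *Dppa3* had 18.3, 16.6 and 12.5 CPM in *Nanog* KO libraries, against 59.8, 60.0 and 57.3 CPM in control libraries. At 24 h *Dppa3* had 7.86, 7.23 and 9.58 CPM in *Nanog* KO libraries, against 50.1, 48.7 and 49.1 CPM in control libraries. The ranges were apart at each time. *Nanog* KO means of *Dppa3* were 37.0%, 26.7% and 16.7% of the control means at 0, 12 and 24 h. In log2 fold change these are -1.37 ± 0.14 (SE), -1.85 ± 0.12 and -2.46 ± 0.12 (adjusted p = 1.1e-07, 5.5e-10 and 1.2e-11 by limma).

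*Gdf3*, the nearest of the 7 to *Dppa3*, stood the other way at 0 h. At 0 h *Gdf3* had 93.8, 88.2 and 96.9 CPM in *Nanog* KO libraries, against 59.5 and 56.6 CPM in control libraries. At 12 h *Gdf3* had 62.2, 62.7 and 66.6 CPM in *Nanog* KO libraries, against 62.5, 55.1 and 56.6 CPM in control libraries. At 24 h *Gdf3* had 59.8, 58.8 and 61.6 CPM in *Nanog* KO libraries, against 61.9, 61.6 and 62.6 CPM in control libraries. Only the 0 h groups were far apart, the 12 h ranges overlapped, and at 24 h the groups met at 61.6 CPM. *Gdf3* differed by 0.67 ± 0.06 (SE, log2) at 0 h (limma, adjusted p = 2.8e-08), 0.14 ± 0.05 at 12 h (adjusted p = 0.043) and -0.05 ± 0.05 at 24 h (adjusted p = 0.51). The 12 h call was lost under 13 of 26 alternatives, among them edgeR (adjusted p = 0.073) and DESeq2 (adjusted p = 0.11).

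*Apobec1*, the nearest of the 7 to *Gdf3* on its other side, was far lower in reads. At 0 h *Apobec1* had 6.35, 6.10 and 7.27 CPM in *Nanog* KO libraries, against 3.17 and 3.27 CPM in control libraries. At 12 h *Apobec1* had 6.54, 6.96 and 4.63 CPM in *Nanog* KO libraries, against 4.40, 4.48 and 4.35 CPM in control libraries. At 24 h *Apobec1* had 3.99, 4.34 and 4.93 CPM in *Nanog* KO libraries, against 5.12, 5.22 and 5.39 CPM in control libraries. *Nanog* KO libraries were above the control at 0 h and 12 h, replicate 3 at 12 h by little, and below it at 24 h, with no overlap at any time. *Apobec1* differed by 0.84 ± 0.13 (SE, log2) at 0 h (limma, adjusted p = 3.6e-05), 0.37 ± 0.12 at 12 h (adjusted p = 0.017) and -0.21 ± 0.12 at 24 h (adjusted p = 0.17). The 12 h call was lost without *Nanog* KO replicate 1 (log2 fold change 0.31, adjusted p = 0.074) and without replicate 2 (0.27, adjusted p = 0.1). The lowest library held 40 reads of *Apobec1*, the fewest of any of the 7 genes.

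*Slc2a3* was the most abundant of the 7 and differed little between genotypes. At 0 h *Slc2a3* had 2660.0, 2657 and 2729 CPM in *Nanog* KO libraries, against 2395 and 2399.8 CPM in control libraries. At 12 h *Slc2a3* had 861, 842 and 848 CPM in *Nanog* KO libraries, against 921, 904 and 928 CPM in control libraries. At 24 h *Slc2a3* had 729, 869 and 707 CPM in *Nanog* KO libraries, against 623, 631 and 665 CPM in control libraries. The groups did not overlap at any time, yet *Nanog* KO cells were above the control at 0 h and 24 h and below it at 12 h. *Slc2a3* differed by 0.16 ± 0.07 (SE, log2) at 0 h (limma, adjusted p = 0.048), -0.11 ± 0.06 at 12 h (adjusted p = 0.13) and 0.26 ± 0.06 at 24 h (adjusted p = 0.0014). The 0 h call was lost under 15 of 26 alternatives, and the 24 h call under 0.

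*Phc1*, the farthest of the 7 from *Nanog*, was higher in *Nanog* KO cells once serum was present. At 0 h *Phc1* had 210.1, 207 and 221 CPM in *Nanog* KO libraries, against 197 and 214 CPM in control libraries. At 12 h *Phc1* had 415, 411 and 446 CPM in *Nanog* KO libraries, against 317, 321 and 328 CPM in control libraries. At 24 h *Phc1* had 460.0, 458 and 444 CPM in *Nanog* KO libraries, against 430.3, 402 and 411 CPM in control libraries. The 0 h ranges overlapped, and the groups were widest apart at 12 h. *Phc1* differed by 0.05 ± 0.05 (SE, log2) at 0 h (limma, adjusted p = 0.44), 0.40 ± 0.05 at 12 h (adjusted p = 1.1e-06) and 0.13 ± 0.05 at 24 h (adjusted p = 0.025). The 24 h call was lost under 6 of 26 alternatives.

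*Foxj2* overlapped between genotypes at all times. At 0 h *Foxj2* had 13.3, 11.7 and 13.96 CPM in *Nanog* KO libraries, against 12.3 and 17.2 CPM in control libraries. At 12 h *Foxj2* had 12.1, 11.2 and 11.6 CPM in *Nanog* KO libraries, against 13.3, 11.7 and 12.5 CPM in control libraries. At 24 h *Foxj2* had 8.60, 9.67 and 8.82 CPM in *Nanog* KO libraries, against 9.43, 9.10 and 9.83 CPM in control libraries. The widest gap was between the pair of control libraries at 0 h. *Foxj2* had log2 fold changes of -0.15 ± 0.11 (SE), -0.09 ± 0.10 and -0.06 ± 0.10 at 0, 12 and 24 h (limma, adjusted p = 0.27, 0.48 and 0.65). Without control replicate 2 at 0 h the value was -0.38 (adjusted p = 0.014), and without control replicate 3 it was 0.07.

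**Figure D1:**
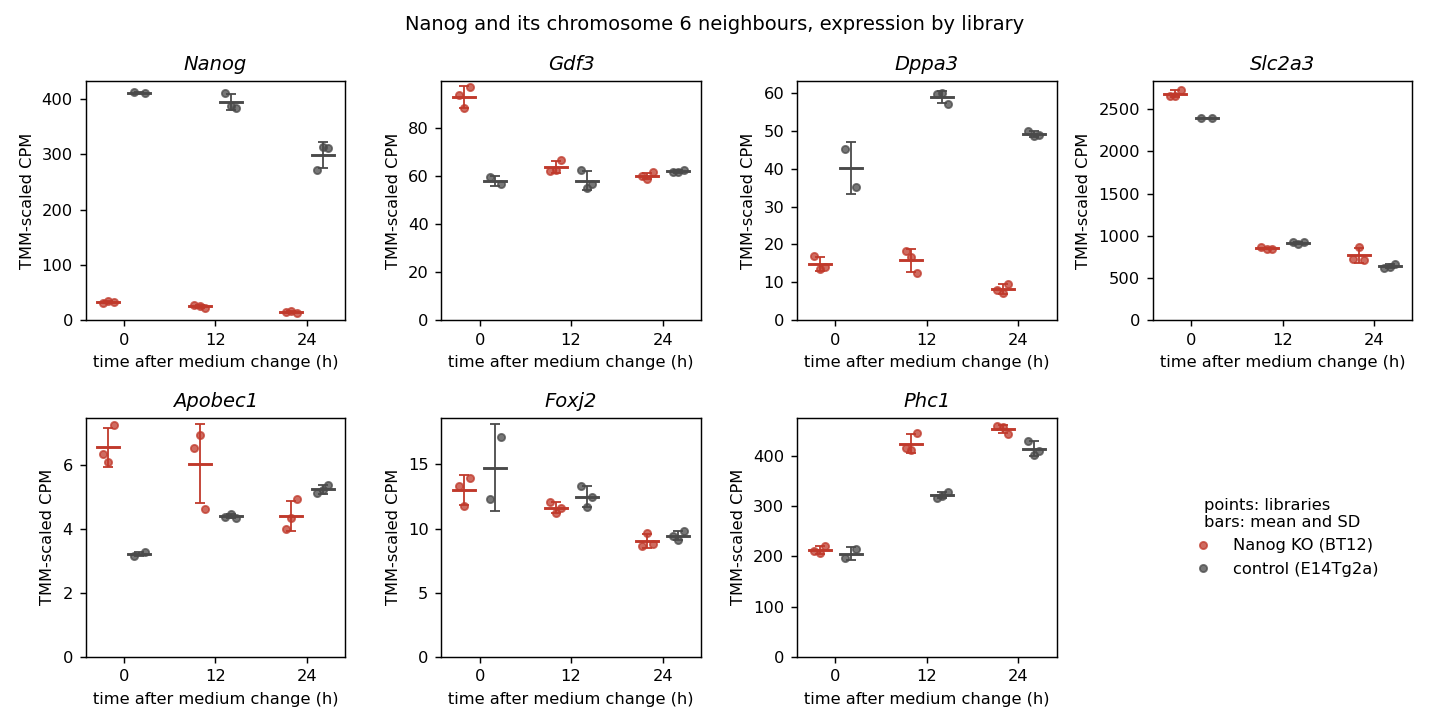
Expression of the 7 genes in each library, in TMM-scaled CPM from 0 on a linear axis of its own per gene, at 0, 12 and 24 h after the change to serum. Points are libraries (*Nanog* KO red and left, control grey and right), and bars are the mean and SD. *Nanog* stands at 12.5 to 34.6 CPM in *Nanog* KO libraries and 271 to 412 CPM in control libraries, and *Dppa3* is the other gene with the 2 genotypes apart in the same direction at all times.

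Counted over the 7 genes, 5 were called at 0 h (3 higher, 2 lower), where 52.3% of all tested genes were called (25.4% higher, 26.9% lower). At 12 h 5 were called (3 higher, 2 lower), against 49.8% of all tested genes (24.6% higher, 25.2% lower). At 24 h 4 were called (2 higher, 2 lower), against 47.9% of all tested genes (23.4% higher, 24.5% lower). Since about 1 gene in 2 was called across the table, these counts say little about the 7 as a group. Among the 7, *Nanog* and *Dppa3* had the largest differences at each time.

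Set along the chromosome, the differences had no single direction. *Dppa3*, the nearest by start, had the largest difference of the 7 after *Nanog* at each time, while *Slc2a3*, *Gdf3* and *Apobec1*, at 94.2 to 105 kb, differed by between -0.21 and 0.84 on the log2 scale. Of 65 genes annotated within 1 Mb of *Nanog*, 13 were in the table, and the 6 that are not among the 7 were tested as well, of which 4 were called at 0 h, 2 at 12 h and 2 at 24 h. *M6pr*, which encodes the cation-dependent mannose 6-phosphate receptor and lies beside *Phc1*, was higher in *Nanog* KO cells by 0.31 ± 0.05 (SE), 0.42 ± 0.05 and 0.40 ± 0.05 on the log2 scale at 0, 12 and 24 h. *Rimklb*, which encodes an enzyme that joins glutamate to N-acetylaspartate, was lower by -0.45 ± 0.06, -0.62 ± 0.06 and -0.50 ± 0.06. Both passed the test at all times. *Necap1*, an endocytic adaptor gene beyond *Foxj2*, had 0.20 ± 0.06 at 0 h (limma, adjusted p = 0.0048), 0.11 ± 0.05 at 12 h (adjusted p = 0.082) and -0.05 ± 0.05 at 24 h (adjusted p = 0.44). *Mfap5* and *1700063H04Rik* were not called at any time. The pseudogene *Gm8430* was listed at 5.79 to 58.4 CPM in *Nanog* KO libraries at 0 h and at 0 in both control libraries, a spread within 1 group that leaves no size to report. Over the 703 tested genes of chromosome 6, 53.6%, 50.4% and 47.5% were called at 0, 12 and 24 h, with medians of 0.06, 0.08 and 0.04 on the log2 scale.

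**Figure D2:**
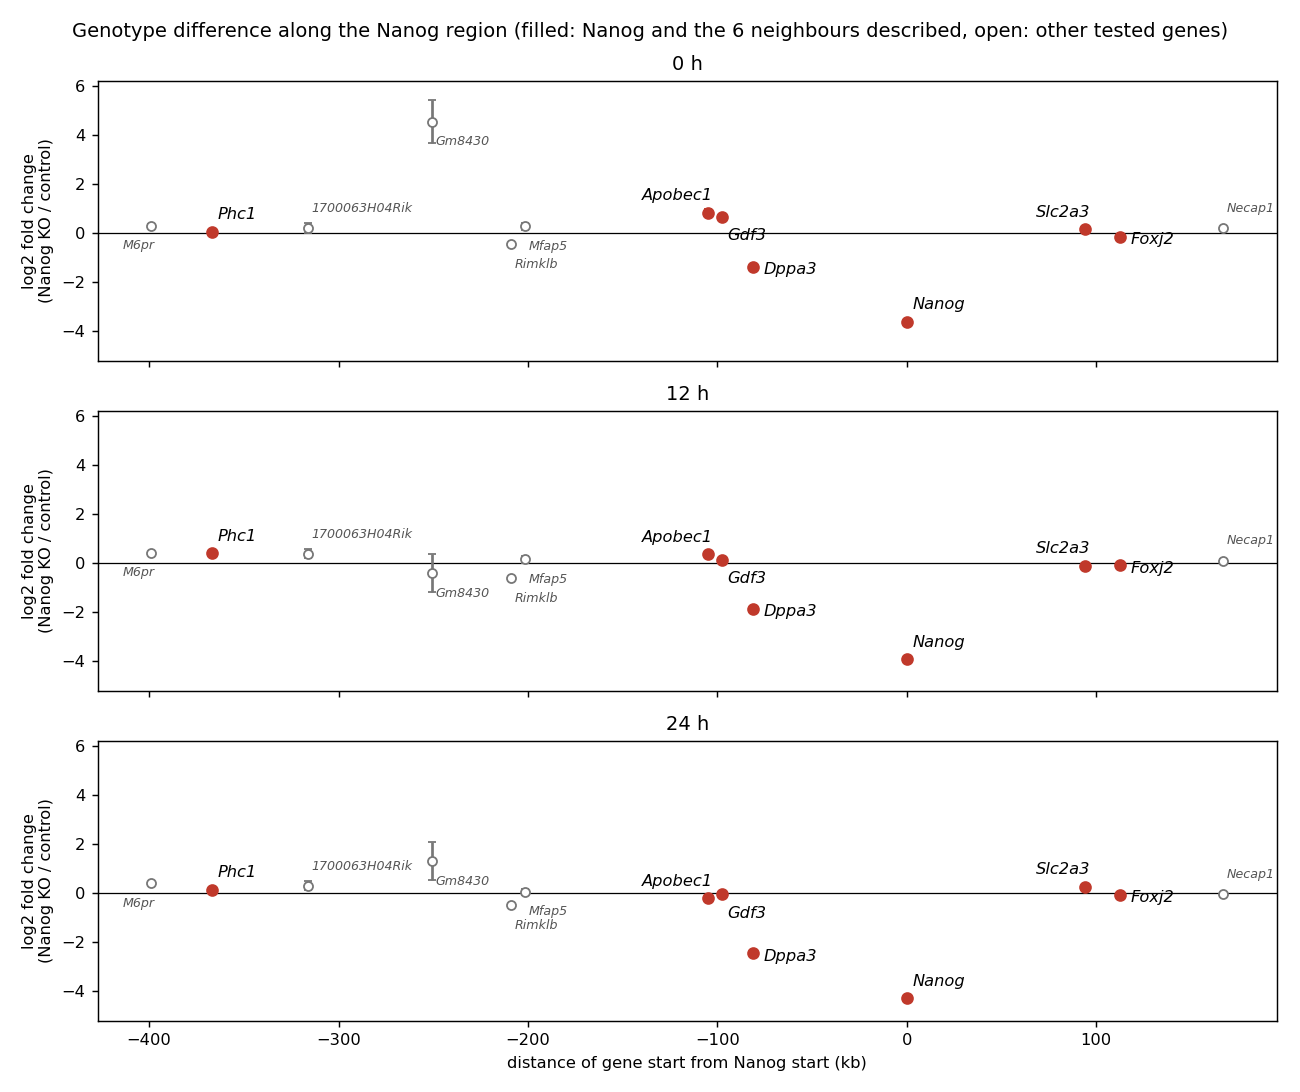
Log2 fold change (*Nanog* KO over control) of every tested gene within 1 Mb of *Nanog*, at 0, 12 and 24 h, against the distance of its start from the *Nanog* start in kb. Red points are the 7 genes described, open points the other 6, and bars are 1 SE. *Nanog* and *Dppa3* are the only red points below -1 at each time, and *Gm8430* at 0 h has the widest bar.

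The next question was how the 7 genes moved with time in serum in each genotype. Between 0 h and 12 h, 4 were called in *Nanog* KO cells (1 higher, 3 lower), against 51.9% of all tested genes (25.7% higher, 26.1% lower), and 4 in control cells (3 higher, 1 lower), against 47.1% (22.6% higher, 24.5% lower). Between 12 h and 24 h, 4 were called in *Nanog* KO cells (0 higher, 4 lower), against 27.4% (13.1% higher, 14.3% lower), and 4 in control cells (1 higher, 3 lower), against 32.0% (15.1% higher, 16.8% lower). Over the whole 24 h all 7 were called in *Nanog* KO cells (1 higher, 6 lower), against 58.3% of all tested genes (28.8% higher, 29.5% lower). In control cells 5 were called over 24 h (2 higher, 3 lower), against 54.9% (26.1% higher, 28.7% lower).

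*Slc2a3* made the largest move of the 7 in both genotypes, and most of it fell in the first 12 h. Its mean was 850.4 ± 9.73 CPM at 12 h, against 2682 ± 40.9 CPM at 0 h, in *Nanog* KO cells (SD, n = 3 each). In control cells it was 917 ± 12.5 CPM at 12 h (SD, n = 3), against 2397 ± 3.51 CPM at 0 h (SD, n = 2). The change over 12 h was -1.66 ± 0.06 (SE, log2) in *Nanog* KO cells, against -1.38 ± 0.07 in control cells (limma, adjusted p = 1.8e-13 and 1.7e-11). From 12 to 24 h it fell further in control cells, by 0.52 ± 0.06 on the log2 scale (adjusted p = 3.9e-06), while in *Nanog* KO cells the value was -0.15 ± 0.06 with overlapping ranges (adjusted p = 0.064). *Nanog* KO replicate 2 at 24 h, at 869 CPM, stood above the other two libraries of its group, and without it the value in *Nanog* KO cells was -0.24 (adjusted p = 0.0011). Over the whole 24 h the values were -1.81 ± 0.06 in *Nanog* KO cells, against -1.90 ± 0.07 in control cells (adjusted p = 2.8e-14 and 9.5e-14).

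*Phc1* moved the opposite way in both genotypes. Its mean in *Nanog* KO cells was 213 ± 7.08 CPM at 0 h, 424 ± 18.8 CPM at 12 h and 454 ± 8.55 CPM at 24 h (SD, n = 3 each). In control cells it was 205 ± 12.4 CPM at 0 h (SD, n = 2), 322 ± 5.63 CPM at 12 h and 414 ± 14.7 CPM at 24 h (SD, n = 3 each). The 12 h and 24 h ranges overlapped in *Nanog* KO cells and were apart in control cells. Over the first 12 h the change was 0.99 ± 0.05 (SE, log2) in *Nanog* KO cells, against 0.65 ± 0.05 in control cells (limma, adjusted p = 7.3e-12 and 1.5e-08). From 12 to 24 h it was 0.10 ± 0.05 in *Nanog* KO cells (adjusted p = 0.12) and 0.36 ± 0.05 in control cells (adjusted p = 1.4e-05). The interaction over 0 to 12 h was 0.35 ± 0.07 (adjusted p = 0.002), and over 0 to 24 h it was 0.08 ± 0.07 (adjusted p = 0.4).

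*Nanog* fell in both genotypes. In *Nanog* KO cells the log2 fold change was -0.37 ± 0.08 (SE) from 0 to 12 h and -0.77 ± 0.08 from 12 to 24 h (limma, adjusted p = 0.001 and 2.0e-06). In control cells it was -0.06 ± 0.09 over the first 12 h, with overlapping ranges, and -0.40 ± 0.08 from 12 to 24 h (adjusted p = 0.6 and 9.9e-04). Over 24 h it was -1.14 ± 0.08 in *Nanog* KO cells, against -0.46 ± 0.09 in control cells (adjusted p = 1.3e-09 and 2.9e-04).

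*Dppa3* and *Apobec1* took different courses in the 2 lines. *Dppa3* in *Nanog* KO cells had 0.07 ± 0.12 (SE) on the log2 scale from 0 to 12 h, where the ranges overlapped, and fell by 0.86 ± 0.12 from 12 to 24 h (limma, adjusted p = 0.64 and 5.5e-05). In control cells it rose by 0.55 ± 0.14 over the first 12 h (adjusted p = 0.0028), and its value from 12 to 24 h was -0.26 ± 0.12 (adjusted p = 0.12). Over 24 h *Dppa3* fell by 0.78 ± 0.12 in *Nanog* KO cells (adjusted p = 2.5e-05), and the value in control cells was 0.30 ± 0.14 (adjusted p = 0.073). The pair of control libraries at 0 h, at 45.1 and 35.3 CPM, limits the control values. Without replicate 3 the first rise was 0.38 (adjusted p = 0.075), and without replicate 2 the change over 24 h was 0.47 (adjusted p = 0.025). The change over 24 h in control cells was called under 5 of 26 alternatives in all, among them edgeR (adjusted p = 0.04), DESeq2 (adjusted p = 0.029) and a fit of only the groups compared (adjusted p = 0.037).

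*Apobec1* fell by 0.48 ± 0.12 (SE) on the log2 scale over 24 h in *Nanog* KO cells and rose by 0.57 ± 0.13 in control cells (limma, adjusted p = 0.0021 and 0.0016). The group means at 24 h stood in the reverse order to those at 0 h, but the 24 h difference between genotypes was not called (adjusted p = 0.17 by limma). In *Nanog* KO cells the values were -0.12 ± 0.12 from 0 to 12 h and -0.37 ± 0.12 from 12 to 24 h (adjusted p = 0.43 and 0.03), with overlapping ranges in both intervals. In control cells they were 0.36 ± 0.13 and 0.21 ± 0.12 (adjusted p = 0.036 and 0.2). The call in the first 12 h of control cells was lost under 8 of 26 alternatives and that from 12 to 24 h in *Nanog* KO cells under 5.

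*Gdf3* fell early in *Nanog* KO cells, by 0.53 ± 0.05 (SE) on the log2 scale from 0 to 12 h (limma, adjusted p = 2.1e-07). Its value from 12 to 24 h there was -0.09 ± 0.05 (adjusted p = 0.25), and over 24 h it fell by 0.62 ± 0.05 (adjusted p = 1.8e-08). In control cells all 3 values lay between -0.00 and 0.09 (adjusted p = 0.99 over the first 12 h and 0.19 for the others), and the libraries stayed between 55.1 and 62.6 CPM at all times.

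*Foxj2* fell in both genotypes. Over 24 h it fell by 0.48 ± 0.10 (SE) on the log2 scale in *Nanog* KO cells, against 0.57 ± 0.11 in control cells (limma, adjusted p = 5.7e-04 and 3.5e-04). From 0 to 12 h, with overlapping ranges in both genotypes, its value was -0.15 ± 0.10 in *Nanog* KO cells, against -0.21 ± 0.11 in control cells (adjusted p = 0.24 and 0.14). Without control replicate 2 at 0 h the control value was -0.43 (adjusted p = 0.0079). From 12 to 24 h the values were -0.33 ± 0.10 in *Nanog* KO cells, a call lost under 4 of 26 alternatives, against -0.37 ± 0.10 in control cells (adjusted p = 0.021 and 0.011). The interaction over 24 h was 0.09 ± 0.15 (adjusted p = 0.69).

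**Figure D3:**
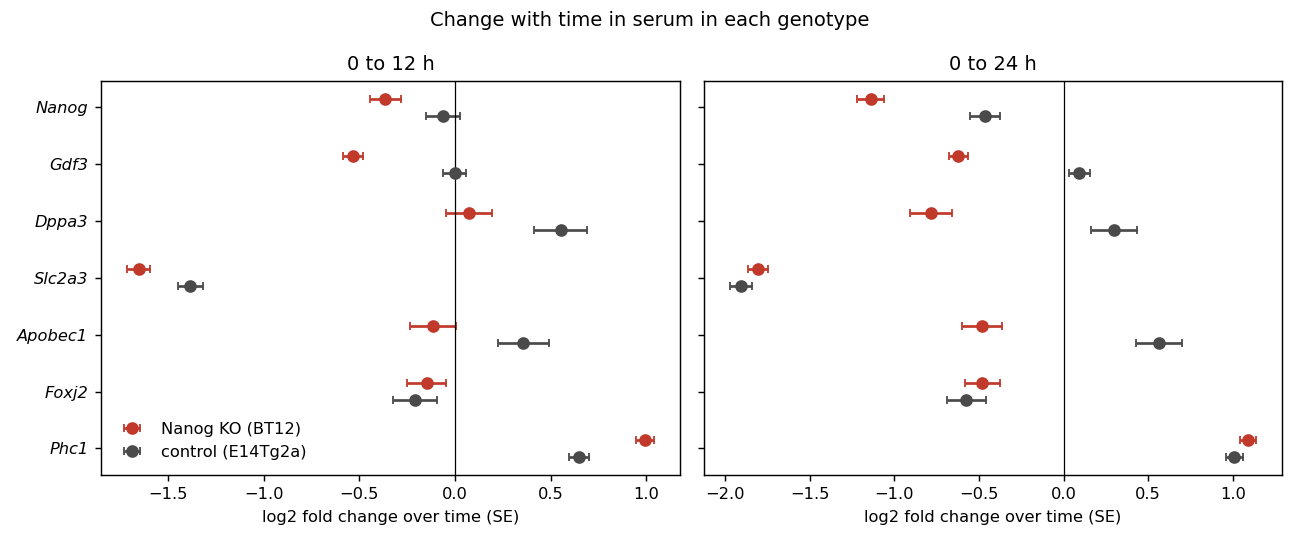
Log2 fold change over time of each gene, from 0 to 12 h and from 0 to 24 h, with *Nanog* KO (red) above control (grey) and bars of 1 SE. *Slc2a3* is far left and *Phc1* far right in both genotypes, while *Gdf3*, *Dppa3* and *Apobec1* lie left of 0 over 24 h in *Nanog* KO cells and right of 0 in control cells. Of these control values only that of *Apobec1* was called.

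Whether the time courses differed between genotypes was tested as an interaction. Over 0 to 12 h 3 of the 7 were called (1 higher, 2 lower), against 19.5% of all tested genes (9.94% higher, 9.60% lower). These were *Gdf3* at -0.53 ± 0.08 (SE), *Slc2a3* at -0.27 ± 0.09 and *Phc1* at 0.35 ± 0.07 (limma, adjusted p = 1.6e-04, 0.039 and 0.002). The *Slc2a3* call was lost under 13 of 26 alternatives. *Nanog*, *Dppa3* and *Apobec1* had -0.30 ± 0.12, -0.48 ± 0.18 and -0.48 ± 0.18 (adjusted p = 0.089, 0.074 and 0.072). Over 0 to 24 h 4 were called (0 higher, 4 lower), against 29.8% (15.5% higher, 14.3% lower). *Nanog* had -0.67 ± 0.12, *Gdf3* -0.72 ± 0.08, *Dppa3* -1.08 ± 0.18 and *Apobec1* -1.05 ± 0.18 (adjusted p = 3.9e-04, 3.1e-06, 2.2e-04 and 2.5e-04), each more negative in *Nanog* KO cells. Of the other 6 tested genes within 1 Mb, 2 were called lower in the same interaction. *Necap1*, on the 3′ side of *Nanog*, had -0.25 ± 0.07 (adjusted p = 0.015), and *Gm8430*, with its wide spread at 0 h, passed as well (adjusted p = 0.042). All these values share the 0 h libraries, of which the control has 2.

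Levels were also taken per kb of exon, with all annotated exons of a gene merged, so that genes can be compared. By that measure *Slc2a3* led at 0 h with 370 CPM per kb in *Nanog* KO cells and 331 CPM per kb in control cells. *Nanog* came next in control cells, at 184 CPM per kb, and stood at 14.6 CPM per kb in *Nanog* KO cells. *Dppa3* followed in control cells by its mean, at 45.1 CPM per kb, with 16.7 CPM per kb in *Nanog* KO cells. Its control libraries, replicates 2 and 3, had 50.6 and 39.6 CPM per kb, against 37.1 and 40.4 for *Phc1*. In replicate 3 *Phc1* thus stood above *Dppa3*. In *Nanog* KO cells *Phc1* and *Gdf3* took the places after *Slc2a3*, at 40.1 and 38.4 CPM per kb, against 38.8 and 24.0 CPM per kb in control cells. *Foxj2* and *Apobec1* were at the foot of the order in both lines, at 2.43 CPM per kb each in *Nanog* KO cells and 2.76 and 1.19 CPM per kb in control cells.

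As a description over the 17 libraries, which share the same 6 groups of genotype and time, *Nanog* and *Dppa3* had the closest profiles of any pair of the 7 (Pearson r = 0.966 on log2(CPM + 1)). Both were low in all *Nanog* KO libraries, a split that enters this r. Over 24 h both fell in *Nanog* KO cells, by 1.14 ± 0.08 (*Nanog*) and 0.78 ± 0.12 (*Dppa3*, SE, log2). In control cells *Nanog* fell (-0.46 ± 0.09), while *Dppa3* had 0.30 ± 0.14 and was not called. *Slc2a3* and *Phc1* were nearly mirror images (r = -0.947), and *Foxj2* went with *Slc2a3* (r = 0.731) and against *Phc1* (r = -0.748). *Gdf3* had its closest partner among the 7 in *Apobec1* (r = 0.657). Among 10311 other genes, excluding predicted ones, those most like *Nanog* were *Tenm3* (r = 0.988), *Igfbp5* (0.984) and *Schip1* (0.983), and those most like *Dppa3* were *Tmsb4x* (0.991), *Maged2* (0.975) and *Chmp4c* (0.965). *Slc2a3* was followed most closely by *Egln1* (0.988), *Kif23* (0.987) and *Socs3* (0.984), and *Phc1* by *Wiz* (0.989), *Ccne1* (0.982) and *Myrf* (0.982). For *Gdf3* they were *Mlh3* (0.968), *Parm1* (0.953) and *Aire* (0.944), for *Foxj2* *Ston1* (0.938), *Mink1* (0.925) and *Ttc7b* (0.923), and for *Apobec1*, the lowest of the 7, *Kat2b* (0.898), *Map10* (0.892) and *Parp14* (0.883).

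The genes that work with each of the 7 were set beside it, as lists described by their counts only. These stand against the 52.3%, 49.8% and 47.9% of all tested genes called at 0, 12 and 24 h with *Nanog* KO set against control. Of 18 pluripotency partners of *Nanog*, 6 were called higher and 6 lower at 0 h with *Nanog* KO set against control, 3 and 6 at 12 h, and 2 and 9 at 24 h, or 66.7%, 50% and 61.1% of the list. *Prdm14*, which encodes a repressor of DNA methylation and of FGF signalling in ES cells, had the largest fall of them at each time, with a mean of 7.48 ± 1.46 CPM in *Nanog* KO cells (SD, n = 3) against 27.3 ± 1.02 CPM in control cells (SD, n = 2) at 0 h. Its log2 fold change was -1.75 ± 0.16 (SE), -2.37 ± 0.14 and -2.49 ± 0.14 at 0, 12 and 24 h. *Esrrb*, an orphan nuclear receptor gene downstream of NANOG, had -0.70 ± 0.06, -0.34 ± 0.05 and -0.24 ± 0.05. *Pou5f1*, which encodes OCT4, had 0.54 ± 0.10, 0.33 ± 0.09 and -0.04 ± 0.09, the last of which was not called.

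Of 8 genes of DNA methylation maintenance and removal set beside *Dppa3*, 3 were higher and 2 lower at 0 h, 2 and 2 at 12 h, and 2 and 3 at 24 h (62.5%, 50% and 62.5% of the list). *Uhrf1*, whose product DPPA3 binds, was higher in *Nanog* KO cells at all times, by 0.25 ± 0.05 (SE), 0.19 ± 0.05 and 0.21 ± 0.05 on the log2 scale. *Tet1*, a methylcytosine oxidase gene, was higher at 0 h by 0.78 ± 0.09, with 0.10 ± 0.08 and -0.11 ± 0.08 later. Of 14 tested genes of GDF and Nodal signalling, 5 were higher and 4 lower at 0 h, 4 and 5 at 12 h, and 5 and 4 at 24 h (64.3% of the list at each time). *Tdgf1*, which encodes the co-receptor Cripto that GDF3 and NODAL share, was higher at all times, by 1.42 ± 0.06, 0.52 ± 0.05 and 0.18 ± 0.05. *Nodal* had 0.61 ± 0.07, 0.40 ± 0.06 and 0.17 ± 0.06. *Lefty2*, an inhibitor of the pathway, was higher at 0 h by 0.71 ± 0.10 and lower at 12 h and 24 h, at -0.29 ± 0.09 and -0.33 ± 0.09.

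Of 11 genes of glucose entry and use set beside *Slc2a3*, 1 rose and 9 fell over 24 h in *Nanog* KO cells. The counts were the same in control cells (1 and 9), but the gene that rose was not the same. These are 90.9% of the list in each, against 58.3% of all tested genes for *Nanog* KO and 54.9% for the control, with list medians of -1.42 and -1.20 on the log2 scale, against -0.00 and -0.01 over all tested genes. *Slc2a1*, the other main glucose transporter gene here (GLUT1), had -1.90 ± 0.08 (SE) in *Nanog* KO cells, against -2.16 ± 0.09 in control cells. *Hk2*, a hexokinase gene, had -1.67 ± 0.06 and -1.54 ± 0.07 in the same order, and *Ldha*, a lactate dehydrogenase gene, -1.99 ± 0.05 and -1.90 ± 0.06. *Slc16a1*, a lactate transporter gene, rose in *Nanog* KO cells and fell in control cells, at 0.30 ± 0.04 in *Nanog* KO cells, against -0.68 ± 0.05 in control cells.

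Of 18 PRC1 genes set beside *Phc1*, 8 were called higher and 4 lower at 0 h, 8 and 2 at 12 h, and 9 and 2 at 24 h (66.7%, 55.6% and 61.1% of the list). The paralogues went opposite ways. *Phc2* was lower at all times, at -1.02 ± 0.07 (SE), -0.77 ± 0.06 and -0.54 ± 0.06, and *Phc3* was higher, at 0.53 ± 0.09, 0.35 ± 0.08 and 0.50 ± 0.08. Against 0 h, the 24 h libraries had 7 of these 18 called higher (4 lower) for *Nanog* KO, with 5 called higher (8 lower) for the control. These are 61.1% of the list for *Nanog* KO, where 58.3% of all tested genes were called, and 72.2% for the control, where 54.9% were called. Of 4 tested deaminase and editing genes, *Rbm47*, which encodes a cofactor of APOBEC1, had -0.06 ± 0.08 at 0 h and was lower at 12 h and 24 h, at -0.69 ± 0.07 and -0.47 ± 0.07, and *Apobec2* was higher at all times, at 0.69 ± 0.14, 0.49 ± 0.13 and 0.45 ± 0.13. Counted together, 2 of the 4 were higher and 0 lower at 0 h, with 2 and 2 at both later times (50%, 100% and 100% of the list). *Foxj3*, a relative of *Foxj2*, was higher at 0 h and 12 h, by 0.39 ± 0.08 and 0.29 ± 0.07, while *Foxj1*, a regulator of motile cilia, was not called between genotypes at any time. Mean *Foxj1* went from 6.47 CPM at 0 h to 12.3 CPM at 12 h in *Nanog* KO cells, and from 4.85 to 12.1 CPM in control cells.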

How the data were processed

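RNA of *Nanog* KO and control ES cells was sequenced at 0, 12 and 24 h. The authors trimmed single reads with cutadapt 1.3, dropped reads under 30 bases and quantified genes with RSEM on the GRCm38 transcriptome (Ensembl). The submitters' processing notes give RSEM 1.2.3 and CASAVA 1.8.2, and the methods give another RSEM version. The deposited values are a signal, TMM-scaled CPM from edgeR. All were whole multiples of 1 read to within 0.001 reads, so depth is the sum of recovered reads, and the ComBat (batch correction) step of the methods left no trace. The labels name no batch and the main fit had no batch term, so the part of any batch in these results was not tested. Intervals from depth cover counting error only.

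Tests used limma 3.58.1 (R 4.3.3, trend) on log2(CPM + 1), which understates changes of low genes, with 17 libraries in 6 groups, genes of at least 1 CPM in at least 3 libraries (353 rows left out), two-sided tests and Benjamini-Hochberg adjustment over 15117 genes with a call at 0.05. No pair of libraries agreed within sampling noise. Genes named are the 7 members, all tested genes within 1 Mb, the 3 most correlated genes of each member and up to 4 genes of each list, and the members and lists were chosen with earlier results of these data known. Alternatives were median-ratio scaling, no low-value filter, a filter at a mean of 5 CPM, 0.1 CPM as the pseudocount, no trend, only the groups compared, a replicate block, edgeR 4.0.16 (quasi-likelihood), DESeq2 1.42.0 and leaving out each library.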

Additional observations from a re-analysis of the deposited data

Results flagged for a closer look

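The change over time differed between *Nanog* KO and control cells, by the interaction term of limma, for 7 values of 6 genes. Over 0 to 24 h the interaction was -0.67 for *Nanog*, -0.72 for *Gdf3*, -1.08 for *Dppa3* and -1.05 for *Apobec1* on the log2 scale, and each of these kept its call under all 26 alternatives. Over 0 to 12 h it was -0.53 for *Gdf3*, -0.27 for *Slc2a3* and 0.35 for *Phc1*. The *Slc2a3* value is the least firm, with its call lost under 13 of the 26 alternatives. The *Nanog* value compares 2 falls of different depth, whereas *Apobec1* fell in *Nanog* KO cells and rose in control cells.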

How the results depend on the processing

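Over 26 alternatives, 17 of which leave out 1 library, the 77 results for single genes gave 2002 values: 1917 stayed on the same side of the threshold, 67 lost the call, 18 gained it and 0 changed direction as a call. Of the 1917, 14 values of 8 results, none of them called, changed sign. Counts of members called moved by over 1.5 times in the cases that follow, and the cause was not tested. At 12 h, *Nanog* KO against control, 3 were called without *Nanog* KO replicate 1 or 2, with a range of 3 to 6 on leaving out each library. In control cells from 0 to 12 h 2 were called without control 0 h replicate 3 (range 2 to 4), and from 12 to 24 h in *Nanog* KO cells 2 without replicate 1 of either time (range 2 to 4). The interaction over 0 to 12 h had 5 with DESeq2 (range 2 to 4 on leaving out a library), adding *Nanog* (adjusted p = 0.032) and *Dppa3* (adjusted p = 0.048). Of the other 6 tested genes within 1 Mb, 4 were called at 12 h without control replicate 1 (range 2 to 4). Leaving out each library gave 4 to 5 at 0 h and 3 to 4 at 24 h for *Nanog* KO against control. Over time it gave 4 (0 to 12 h) and 7 (0 to 24 h) in the *Nanog* KO line, 4 from 12 to 24 h and 5 to 6 from 0 to 24 h in control cells, and 4 for the interaction over 24 h.

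No pairing by replicate number was seen: deviations of same-numbered libraries had a median correlation of -0.019 over 40 pairs, against 0.006 over 80 other pairs. Correlations were above 0.1 in 2 of the 40 (highest 0.104) and in 13 of the 80 (highest 0.245). What those libraries share was not tested, and groups of 2 or 3 libraries make this a weak check. With the replicate number as a block, *Slc2a3* at 0 h (adjusted p = 0.057), *Gdf3* at 12 h (0.053), *Apobec1* from 0 to 12 h in control cells (0.052) and the *Slc2a3* interaction over 0 to 12 h (0.053) lost their calls. Depth limits *Apobec1* most, with 40 reads in its lowest library.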
